A study of Mus musculus with 12 samples.

Results

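Voltage-gated and potassium channel genes were followed in the adrenal glands of mice that carry extra copies of Ftz-F1. The rule uses gene names and no measured value: it takes every probe whose symbol in the platform's probe-to-gene table starts with Kcn (potassium channel subunits), with Cacn (voltage-gated calcium channel subunits), or with Scn and a digit (voltage-gated sodium channel subunits). This rule found 124 probes for 110 genes, out of 18617 genes with a probe assigned to a single gene. Of the 110, 78 were Kcn, 23 Cacn and 9 Scn genes. There were 105 with enough values to be tested, and the other 5 are named beside their families.

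Ftz-F1 is the older name of Nr5a1, the gene of the nuclear receptor SF-1, which regulates steroid-producing cells. All transgenic mice came from line #56 and are marked YAC in the labels, so the data speak for 1 transgenic line. Each was compared on 2-colour arrays with a littermate that lacks the transgene and shares its sex and age, and every pair was measured on a dye-exchanged set of 2 arrays, so that 6 pairs gave 12 arrays. Pairs are named by the number of the transgenic mouse: at an age of 10 days, pairs 11 and 13 were male and pair 15 female, each with 1 transgene copy, and at 4 months pairs 1 and 3 were male and pair 5 female, each with 2 copies. Age and copy number therefore cannot be told apart.

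Ion channels are membrane proteins that open a pore for potassium, calcium or sodium in response to voltage, ligands or intracellular calcium. Potassium channels hold the resting voltage negative and end action potentials, whereas calcium and sodium channels depolarize the cell, and calcium entry triggers secretion. In the adrenal gland, potassium channels such as Kcnk3 and Kcnj5 set the voltage of the glomerulosa cells that make aldosterone, and calcium and sodium channels carry the action potentials with which chromaffin cells of the medulla release catecholamines.

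All values are log2 ratios of the 2 samples of a pair, after a correction for the dye trend and averaged over the 2 arrays of the pair. The labels do not say which sample of a pair is the numerator, so signs are as deposited. A positive ratio is a higher level in the transgenic gland if that sample is the numerator and a lower level if it is the denominator, and all signs turn together. The transgene's own gene, Nr5a1, had ratios of -0.57, -0.65 and -0.79 in pairs 11, 13 and 15 and of -0.46, 0.11 and -0.22 in pairs 1, 3 and 5. It was negative in 5 of 6 pairs, which would be a higher level in transgenic mice if the columns hold wild type over transgenic. Nr5a1 did not pass the threshold (limma adjusted p = 0.104), and the direction is not settled.

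The 2 dye orientations, with transgenic RNA labelled by Cy3 or by Cy5, also form 2 batches by the arrays' descriptions, so dye and batch cannot be told apart. Medians of lists of cell type markers stood apart in 3 pairs. Hepatocyte markers (9 genes tested) were at 1.42 in pair 11 and at 0.00 to 0.48 elsewhere, and adipocyte markers (7 genes) at 2.08 in pair 15 and at -0.23 to 0.26 elsewhere. In pair 3, B and T cell markers (8 genes) were at -1.86, against -0.08 to 0.04 elsewhere, and macrophage markers (8 genes) at -1.44, against -0.69 to 0.51. Chromaffin cell markers were positive for 17 of 20 genes tested, with list medians of 0.08, 0.42 and 0.73 in pairs 11, 13 and 15 and of 0.30, 0.67 and 0.51 in pairs 1, 3 and 5. Of these 20, 3 passed in limma: Gal at 1.20, Scg5 at 0.79 and Pcsk1 at 0.67. Pnmt, the enzyme that makes adrenaline, at 1.15, and Th, the first enzyme of catecholamine synthesis, at 0.79, did not pass (adjusted p = 0.0654 and 0.104). The 3 negative ones were Chga at -0.17, Chgb at -0.02 and Snap25 at -0.06. Adrenal cortex markers had a median of -0.05 over 11 genes tested, but it varied between pairs. The list medians were -0.54, -0.13 and 0.20 in pairs 11, 13 and 15 and -0.38, 0.58 and 0.14 in pairs 1, 3 and 5. The mean was negative for 10 of the 11 at 10 days and for 5 at 4 months. In whole glands, a different number of cells of a type and a different amount of RNA per cell cannot be told apart.

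Over all 6 pairs, the average of the means at the 2 ages was tested against 0, so a ratio need not be shared by both. Here 1 channel gene passed the adjusted threshold of 0.05: Kcnc4, with a mean log2 ratio of 0.63. Across all 21513 features tested, 12 passed, or 0.0558%. Most channel genes stayed close to 0: 75 of 105 had a mean between -0.2 and 0.2, and 8 lay beyond 0.4 in either direction. The mean was positive for 66 of 105, or 62.9%, against 47.1% of all features, and the median was 0.07 against -0.01. An unadjusted limma p under 0.05 was found for 23 channel genes, or 21.9%, against 15.0% of all features, and 20 of these 23 were positive and 3 negative, where 7.52% and 7.45% of all features were. All 6 pairs had the same sign for 16 channel genes, or 15.2%, against 9.86% of all features. Of these, 14 were positive, as were 5.37% of all features, and 2 negative, as were 4.49%. The 2 dye orientations differed in this: the channel genes' median was 0.175 where Cy5 labelled the transgenic RNA and -0.044 where Cy3 did. The medians of all features were -0.002 and -0.01. The source of the positive shift was not tested.

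Kcnc4 (Entrez gene 99738) encodes Kv3.4, a pore subunit of the fast Kv3 group of voltage-gated potassium channels that shortens action potentials. Its ratios were 0.65, 0.48 and 0.81 in pairs 11, 13 and 15, and 0.65, 0.58 and 0.58 in pairs 1, 3 and 5. All 6 pairs were positive and the 2 ages overlapped, with means of 0.65 ± 0.17 (SD, n = 3) at 10 days and 0.61 ± 0.04 (SD, n = 3) at 4 months. The mean over all pairs was 0.63 ± 0.11 (SD, n = 6), a 1.54-fold ratio, with a limma adjusted p of 0.0488. All 12 arrays were positive, from 0.24 to 0.77 where Cy3 labelled the transgenic RNA and from 0.42 to 0.93 where Cy5 did. The adjusted p lay just under the threshold: leaving out any 1 pair gave values of 0.59 to 0.67 with adjusted p between 0.0926 and 0.249, so the call was lost each time. Without pairs 11, 15 and 3, the pairs whose marker lists stood apart, the value was 0.55 (adjusted p = 0.595). The Kcnc4 ratio had the sign of the chromaffin marker medians in all 6 pairs, and their part in it was not tested.

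The other members of the Kv3 group did not share this ratio. Kcnc1, which encodes Kv3.1, had a mean of -0.04 ± 0.20 (SD, n = 6), and Kcnc2, which encodes Kv3.2, a mean of -0.05 ± 0.13 (SD, n = 6). Their highest pair value was 0.20 for both genes, below the lowest value of Kcnc4. Since SF-1 binds DNA at sites with the letters CAAGGTCA, these were searched on both strands in the 250 bases before the start of each gene in RefSeq (GRCm38.p6). Of 117 windows for 84 channel genes, 1 held the letters (0.855%), against 1.33% of 32851 windows of all genes. The window with a match belonged to Kcnf1, a modifier subunit and it is shown beside that of Kcnc4, the gene past the threshold, which held none. Both run 5′ to 3′ on the minus strand, Kcnc4 at chr3:107458899-107459148 and Kcnf1 at chr12:17176889-17177138, and capitals mark the match, which begins 76 bases before the Kcnf1 start.
Kcnc4: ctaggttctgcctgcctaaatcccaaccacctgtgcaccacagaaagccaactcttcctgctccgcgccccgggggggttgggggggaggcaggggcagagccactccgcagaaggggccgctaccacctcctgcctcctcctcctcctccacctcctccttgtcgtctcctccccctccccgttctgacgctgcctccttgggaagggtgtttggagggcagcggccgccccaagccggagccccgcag
Kcnf1: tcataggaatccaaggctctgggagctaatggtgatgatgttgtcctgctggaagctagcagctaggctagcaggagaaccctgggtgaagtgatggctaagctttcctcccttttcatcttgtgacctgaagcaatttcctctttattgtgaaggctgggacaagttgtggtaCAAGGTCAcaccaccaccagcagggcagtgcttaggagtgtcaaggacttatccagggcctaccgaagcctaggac
The match is a description of letters and not a shown binding site. The Kcnc4 window was 68.0% G and C, the Kcnf1 window 51.2%, and the median over channel gene windows was 58.0%, against 52.4% over all windows.

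**Figure D1:**
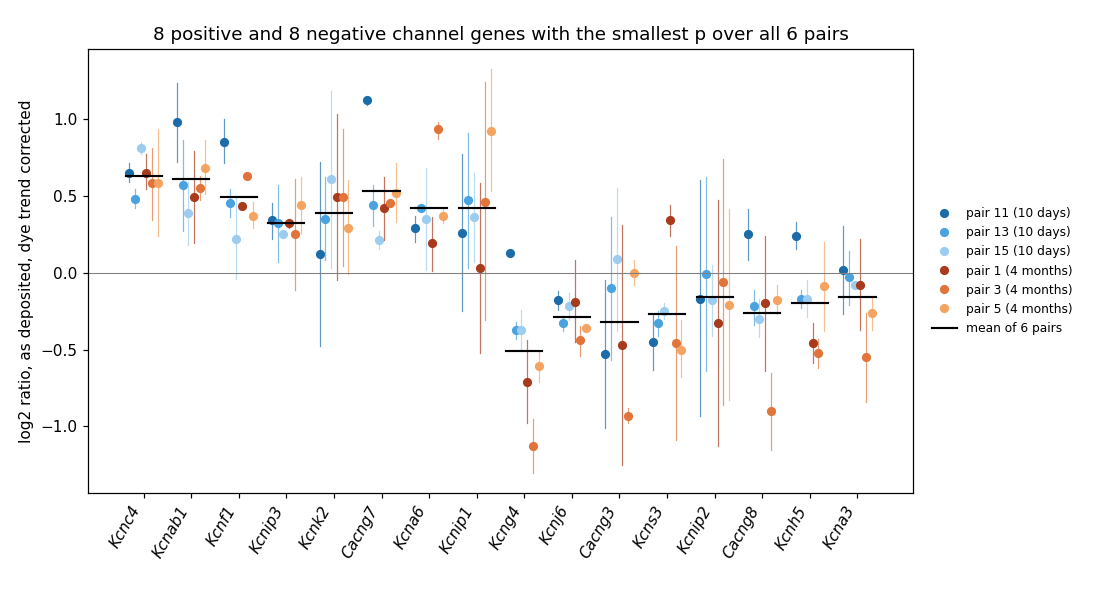
Dye-corrected log2 ratios, as deposited (vertical axis), for the 8 positive and the 8 negative channel genes with the smallest p over all 6 pairs (horizontal axis). Points are pairs, thin lines join the 2 dye-exchanged arrays of a pair, and black bars are means of 6 pairs. The Kcnc4 points lie between 0.48 and 0.81, whereas the lines of Kcnk2, Kcnip1 and Kcnip2 reach across a wide range.

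Among the other pore subunits of voltage-gated potassium channels, the Kv1 group had 5 of 8 genes positive and a median of 0.09. Kcna6, which encodes Kv1.6, had ratios of 0.29, 0.42 and 0.35 at 10 days (pairs 11, 13, 15) and of 0.19, 0.93 and 0.37 at 4 months (pairs 1, 3, 5). Every pair and all 12 arrays were positive, with pair 3 the highest, and the mean of 0.42 ± 0.26 (SD, n = 6) did not pass (limma adjusted p = 0.139). Without pair 3 the Kcna6 value was 0.31. Kcna1, which encodes Kv1.1, was positive in all 6 pairs with a lowest value of 0.01 and a mean of 0.26 ± 0.24 (SD, n = 6; limma adjusted p = 0.227). Kcna4, the Kv1.4 subunit of fast inactivating currents, had a mean of 0.10. Kcna3, the Kv1.3 channel that lymphocytes carry, had the lowest mean of the group at -0.16 and its lowest pair value, -0.55, in pair 3. The B and T cell markers were lowest in the same pair, and their part in the Kcna3 value was not tested.

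Kcnb2, a pore subunit of the Kv2 group, had a mean of -0.15 ± 0.17 (SD, n = 6). Of the Kv4 group, which carries fast transient currents, Kcnd1 had a mean of 0.13, Kcnd2 of -0.02 and Kcnd3 of -0.00. Kcnd3os, an RNA named for the strand opposite to Kcnd3, was at -0.06. Among the Kcnh genes, Kcnh2, which encodes the ERG channel, had a mean of 0.03, and Kcnh5 the lowest at -0.20 with pair values from -0.52 to 0.24. Kcnq1, the pore partner of Kcne1, had a mean of 0.03 ± 0.26 (SD, n = 6), with its sign varying between pairs. Kcnh3 had 1 deposited value on the 12 arrays and was not tested.

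The modifier subunits Kcnf, Kcng, Kcns and Kcnv form no channel of their own and alter Kv2 channels. This group of 8 held both the most negative member and one of the more positive ones. Kcnf1 (Entrez gene 382571), which encodes Kv5.1, had ratios of 0.85, 0.45 and 0.22 in pairs 11, 13 and 15 and of 0.43, 0.63 and 0.37 in pairs 1, 3 and 5. All 6 pairs and 11 of 12 arrays were positive, and pair 11 was the highest. The mean was 0.49 ± 0.22 (SD, n = 6) with a limma adjusted p of 0.0964, and 0.41 without pair 11. Kcng4 (Entrez gene 66733), which encodes Kv6.4, had ratios of 0.13, -0.37 and -0.37 at 10 days and of -0.71, -1.13 and -0.61 at 4 months. The 3 values at 4 months all lay below the 3 at 10 days, and pair 3 was the lowest. The Kcng4 mean was -0.51 ± 0.42 (SD, n = 6; limma adjusted p = 0.0991) over all pairs and -0.82 ± 0.27 (SD, n = 3) at 4 months, where its adjusted p was 0.208. Leaving out pair 3 gave -0.66 at 4 months. Kcns3 was negative in 5 of 6 pairs with a mean of -0.27 ± 0.32 (SD, n = 6), and pair 1 was at 0.34.

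The accessory subunits of voltage-gated potassium channels held the highest median of the potassium families with more than 1 gene, 0.20 over 12 genes, of which 9 were positive. Kcnab1 (Entrez gene 16497), which encodes the beta subunit that speeds inactivation of Kv1 channels, had ratios of 0.98, 0.57 and 0.39 at 10 days and of 0.49, 0.55 and 0.68 at 4 months. All 12 arrays were positive, and the mean of 0.61 ± 0.21 (SD, n = 6), a 1.53-fold ratio, missed the threshold (limma adjusted p = 0.0761). Without pair 11, the highest, the value was 0.53. Its relatives differed: Kcnab3 had a mean of 0.23 ± 0.23 (SD, n = 6), and Kcnab2 a mean of -0.10 ± 0.93 (SD, n = 6) that rested on a ratio of -1.93 in pair 3. Without pair 3, Kcnab2 was at 0.24.

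The Kcnip genes encode calcium-binding partners of Kv4 channels. Kcnip3, also known as the transcriptional repressor DREAM, had ratios of 0.34, 0.32 and 0.25 at 10 days and of 0.32, 0.25 and 0.44 at 4 months. Its 6 pairs lay close together, with a mean of 0.32 ± 0.07 (SD, n = 6; limma adjusted p = 0.104) and 11 of 12 arrays positive. Kcnip1 had a larger mean, 0.42 ± 0.30 (SD, n = 6; adjusted p = 0.168), which was 0.91 where Cy5 labelled the transgenic RNA and -0.08 where Cy3 did. Kcnip2 and Kcnip4, both measured by dim probes, had means of -0.16 and -0.12. The Kcne genes, small single-span subunits, had means from 0.04 for Kcne1l to 0.21 for Kcne3, with Kcne1, the partner of Kcnq1, at 0.14. Kcne4 reached 0.99 in pair 15, where the adipocyte markers stood at 2.08, and was at 0.20 ± 0.45 (SD, n = 6) over all pairs. The part of adipocyte RNA in that value was not tested.

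**Figure D2:**
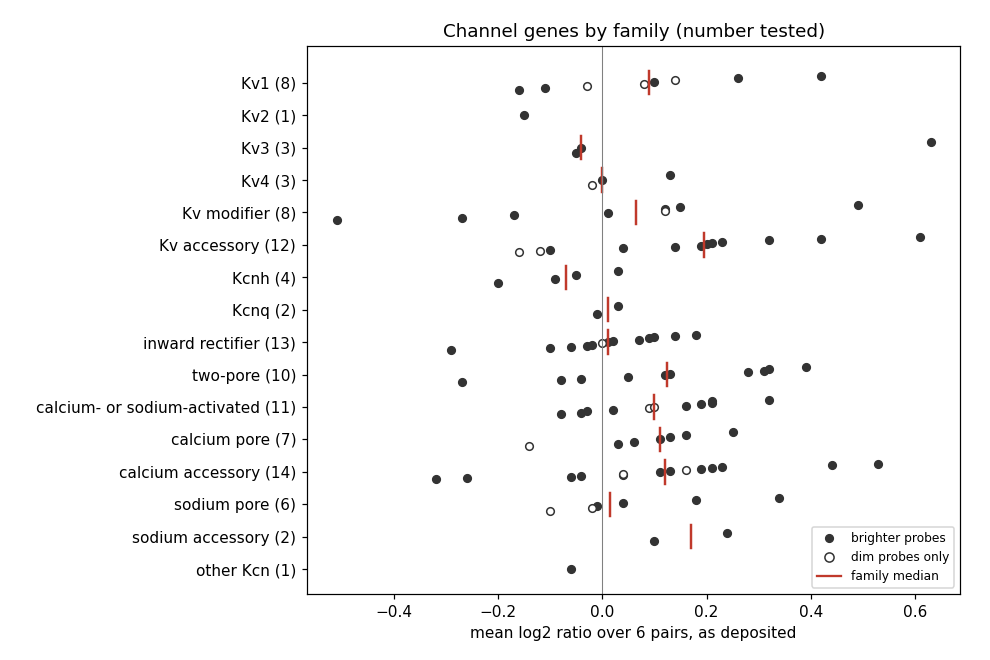
Mean dye-corrected log2 ratio over 6 pairs, as deposited (horizontal axis), of each tested channel gene by family (vertical axis, with the number tested). Filled points are genes with a brighter probe, open points genes with dim probes only, and red bars medians of families with more than 1 gene tested. These medians lie between -0.07 for the Kcnh genes and 0.20 for the Kv accessory subunits, and Kcnc4 at 0.63 stands apart from the other Kv3 genes.

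Inwardly rectifying potassium channels hold cells near the resting voltage. Their median over 13 genes was 0.01, with 7 positive. Kcnj6 (Entrez gene 16522), a G protein-gated channel, had ratios of -0.18, -0.33 and -0.22 at 10 days and of -0.19, -0.44 and -0.36 at 4 months. It was negative in all 6 pairs and on 11 of 12 arrays, with a mean of -0.29 ± 0.11 (SD, n = 6; limma adjusted p = 0.142). Its 2 probes did not give the same size: the brighter probe was at -0.49 and the dim one at -0.08. Kcnj5, the G protein-gated channel of glomerulosa cells, had ratios of 0.33, -0.10 and -0.22 at 10 days and of 0.27, 0.37 and 0.40 at 4 months. The sign of Kcnj5 varied at 10 days and was positive in all 3 pairs at 4 months, where its mean was 0.35, while the mean over all pairs was 0.18 ± 0.27 (SD, n = 6; limma adjusted p = 0.392). Kcnj11, the pore of the ATP-sensitive channel, was at 0.09 ± 0.24 (SD, n = 6). Kcnj16 was at -1.06 in pair 3, and its other 5 ratios ran from 0.01 to 0.42.

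Two-pore domain potassium channels, encoded by the Kcnk genes, carry background current. Of 10 tested, 7 were positive, and the median was 0.12. Kcnk2, which encodes TREK-1, a background channel of adrenocortical cells, had ratios of 0.12, 0.35 and 0.61 at 10 days and of 0.49, 0.49 and 0.29 at 4 months. All pairs were positive and the mean was 0.39 ± 0.17 (SD, n = 6; limma adjusted p = 0.104), but it was 0.85 where Cy5 labelled the transgenic RNA and -0.07 where Cy3 did. Kcnk3, which encodes TASK-1, a channel of glomerulosa cells, was at 0.13 ± 0.27 (SD, n = 6) with a lowest pair of -0.33 and a highest of 0.46. Kcnk13 at 0.32, Kcnk10 at 0.31 and Kcnk16 at 0.28 had unadjusted p under 0.05 and adjusted p of 0.195 to 0.255 in limma. Kcnk5 had the lowest mean of the family, -0.27 ± 0.50 (SD, n = 6), with pair 3 at 0.59 and the other pairs between -0.75 and -0.02. Kcnk1 had 1 deposited value, from a dim probe, and was not tested.

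Calcium- or sodium-activated potassium channels were positive for 8 of 11 genes with a median of 0.10. In chromaffin cells the large-conductance channel, with the pore Kcnma1 and beta subunits Kcnmb, and the small-conductance Kcnn channels limit firing. Kcnma1 was measured by a dim probe at 0.10 ± 0.10 (SD, n = 6), with the orientations at 0.66 and -0.46. Kcnmb1, Kcnmb2 and Kcnmb4 were at -0.04, -0.03 and -0.08, and Kcnn1, Kcnn2 and Kcnn3 at 0.16, 0.21 and 0.19. None of these reached an unadjusted p of 0.05 in limma. Kcnu1, a relative of Kcnma1 known from sperm, was the highest of the family at 0.32 ± 0.28 (SD, n = 6; limma adjusted p = 0.172), with 0.82 in pair 1. The 2 arrays of that pair were at 0.22 with transgenic RNA in Cy3 and at 1.43 in Cy5.

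Pore subunits of voltage-gated calcium channels were positive for 6 of 7 genes, with a median of 0.11, and none had an unadjusted p under 0.05 over all 6 pairs in limma. Cacna1h, the T-type channel of glomerulosa cells, had ratios of 0.02, 0.44 and -0.20 at 10 days and of -0.03, 0.85 and 0.39 at 4 months. It had the highest mean of the family, 0.25 ± 0.39 (SD, n = 6), and the ages overlapped. Cacna1g, another T-type channel, was at 0.03, the P/Q-type Cacna1a at 0.13 and the N-type Cacna1b at 0.06. Cacna1d, an L-type channel that drives firing in chromaffin cells, was measured by a dim probe at -0.14, with orientation means of 0.37 and -0.65. Cacna1c, the other main L-type channel, and the accessory subunit Cacna2d1 had 1 deposited value each and were not tested.

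Accessory subunits of calcium channels were positive for 10 of 14 genes, with a median of 0.12. Cacng7 (Entrez gene 81904), a gamma subunit also known to regulate AMPA receptors, had ratios of 1.12, 0.44 and 0.21 at 10 days and of 0.42, 0.45 and 0.52 at 4 months. All 12 arrays were positive and pair 11 was the highest. The mean was 0.53 ± 0.31 (SD, n = 6; limma adjusted p = 0.11), and 0.39 without pair 11. Cacng4 was positive in all pairs, from 0.07 to 0.87, with a mean of 0.44 ± 0.31 (SD, n = 6; adjusted p = 0.169). Its relatives Cacng3 and Cacng8 were negative at -0.32 and -0.26, with their lowest values, -0.93 and -0.90, in pair 3. With transgenic RNA in Cy3 and in Cy5, Cacng3 was at -0.71 and 0.06, and Cacng8 at -0.06 and -0.45. Cacng4 was at 0.13 and 0.75 in the same order, and its arrays in pair 1, its highest pair, at 0.09 and 1.64. Cacnb2, a beta subunit that carries L-type pores to the membrane, was at 0.04.

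Sodium channel pore subunits were positive for 3 of 6 genes, with a median of 0.01. Scn7a, a channel that senses extracellular sodium, had ratios of 0.17, 0.50 and 0.49 at 10 days and of 0.34, -0.01 and 0.56 at 4 months. It had the highest mean of the sodium channel genes, 0.34 ± 0.22 (SD, n = 6; limma adjusted p = 0.175), and its 2 probes were at 0.52 and 0.17. Scn9a, which encodes Nav1.7, the sodium channel of chromaffin cells, was at 0.04 ± 0.22 (SD, n = 6), with 0.48 in pair 13 and the other pairs between -0.11 and 0.05. The beta subunits Scn2b and Scn3b were at 0.24 and 0.10. Scn3a, another chromaffin cell channel, had 0 deposited values.

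At 10 days, 0 channel genes passed, as did 0 of 21513 features (0.0%). The lowest adjusted p of a channel gene was 0.236, for Kcnc4. An unadjusted limma p under 0.05 was found for 11 channel genes, or 10.5%, against 8.34% of all features; the ordinary linear model also called 0 and gave 10. Of these 11, 1 was negative, Kcnj6 at -0.24, and 10 were positive, where 4.09% and 4.25% of all features were. The positive ones were led by Kcnc4 at 0.65, Kcnab1 at 0.64, Cacng7 at 0.59 and Kcnf1 at 0.51. Without pair 11, Cacng7 was at 0.32 and Kcnf1 at 0.34, while Kcnc4 was at 0.64 and Kcnab1 at 0.48. Cacna1a was among them at 0.31, but its arrays ran from -0.16 to 0.15 with transgenic RNA in Cy3 and from 0.6 to 0.75 in Cy5. Without pair 13 there were 4 in place of 11, or 3.81%, and the share of all features also fell, to 5.51%. The mean was above 0 for 79 of 105 channel genes and for 48.6% of all features. The 3 pairs had the same sign for 43 channel genes, and 31.8% of all features did so. Of the 43, 36 were positive, and of all 21513 features 3311 were positive in the 3 pairs. The channel genes' median at 10 days was 0.185 with transgenic RNA in Cy5 and -0.004 in Cy3, where all features had 0.003 and -0.006.

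At 4 months, 0 channel genes passed, as did 0 of 21513 features (0.0%), and the lowest adjusted p was 0.208. An unadjusted limma p under 0.05 was found for 25 channel genes, or 23.8%, against 12.3% of all features; the ordinary linear model called 0 and gave 20. Of the 25, 17 were positive and 8 negative, where 6.09% and 6.21% of all features were. The positive ones were led by Kcnc4 at 0.61, Kcnab1 at 0.57 and Kcnu1 at 0.51. The negative ones were led by Kcng4 at -0.82, Cacng3 at -0.47, Cacng8 at -0.43, and Kcnh5 and Kcnj14 at -0.36. Without pair 3 these means were -0.66 for Kcng4, -0.23 for Cacng3, -0.19 for Cacng8, -0.28 for Kcnh5 and -0.16 for Kcnj14. The 4-month arrays of Cacng3 ran from -1.25 to -0.08 with transgenic RNA in Cy3 and from -0.88 to 0.31 in Cy5. Without pair 3 there were 14 in place of 25, or 13.5%, and the share of all features also fell, to 8.86%. The mean was above 0 for 61 of 105 channel genes and for 48.0% of all features. The 3 pairs had the same sign for 47 channel genes, and 34.5% of all features did so. Of the 47, 32 were positive, and of all 21513 features 3719 were positive in the 3 pairs. The channel genes' median at 4 months was 0.182 with transgenic RNA in Cy5 and -0.023 in Cy3, where all features had -0.003 and -0.005.

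For the difference between 4 months and 10 days, 0 channel genes passed, as did 0 of 21513 features (0.0%), with a lowest adjusted p of 0.933. An unadjusted limma p under 0.05 was found for 5 channel genes, or 4.76%, against 4.56% of all features, and the ordinary linear model called 0 and gave 2. These 5 were Kcng4 with a difference of -0.61 (SE 0.21), Kcnj14 with -0.52 (SE 0.21), Scn11a with -0.39 (SE 0.15), Cacna1a with -0.35 (SE 0.15) and Scn2a with 0.50 (SE 0.22). Scn2a was the 1 positive gene among the 5, and 2.17% of all features were positive and 2.39% negative at this p. Scn11a and Scn2a were measured by dim probes. For Cacna1a, the 10-day arrays ran from -0.16 to 0.15 with transgenic RNA in Cy3 and from 0.6 to 0.75 in Cy5. The number of such genes was 2 without pair 11 or without pair 3, and 3 without pair 13 or without pair 15. In that order these were 1.94%, 1.92%, 2.86% and 2.91% of channel genes, against 5.51%, 3.81%, 3.31% and 4.04% of all features. The difference was above 0 for 41 of 105 channel genes and for 50.0% of all features. Kcnj14 and Kcns1 had 3 positive pairs at 10 days and 3 negative ones at 4 months, as did 1.25% of all features, and 2.49% of all features turned in either direction. For Kcng4 the difference was -0.45 without pair 3 and -0.44 without pair 11.

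**Figure D3:**
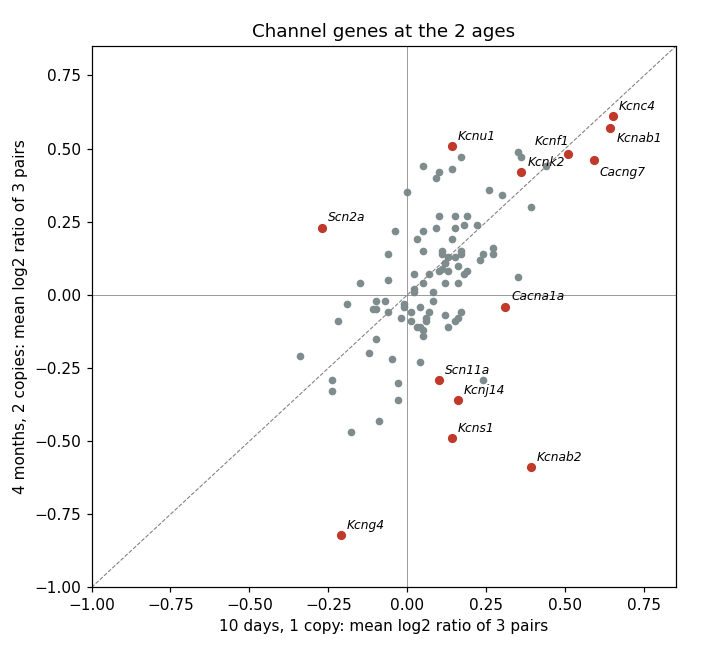
Mean dye-corrected log2 ratio, as deposited, of 3 pairs at 10 days with 1 copy (horizontal axis) and of 3 pairs at 4 months with 2 copies (vertical axis), 1 point per tested channel gene. The dashed line marks equal values, and named genes are in red. Kcnc4, Kcnab1, Kcnf1, Cacng7 and Kcnk2 lie near the line on the positive side, and Kcng4 lies at -0.21 and -0.82.

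Pair 3 set several of the extreme values. The SD over channel genes was 0.449 in this pair, where the other 5 pairs gave 0.222 to 0.318, and 36 of 105 genes had their most distant value in pair 3. Neither figure was set beside all features, so whether channel genes differ from them in this was not tested. Kcnab2 at -1.93, Kcns1 at -1.40, Kcng4 at -1.13 and Kcnj16 at -1.06 lay beyond 1 in pair 3, and both arrays of the pair gave this for Kcnab2, at -2.08 and -1.79. In the other 5 pairs, Kcnab2 ran from -0.05 to 0.63 and Kcns1 from -0.04 to 0.18. The B and T cell markers in pair 3 included Cd79b at -5.18 and Cd79a at -4.18, and Ptprc, a marker of all leukocytes, at -2.36. Their part in the channel values of pair 3 was not tested.

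The dye orientation mattered for single genes, and the 2 arrays of a pair agreed to different degrees. Across channel genes, with each gene's orientation mean subtracted, they correlated at r = 0.08 in pair 1 and 0.70 in pair 3. The other pairs gave 0.22 to 0.39. In pair 1 this did not exceed the highest correlation with an array of another pair, 0.09. Over all features, r ran from 0.24 in pair 1 to 0.68 in pair 3. The sign was the same in both orientation means for 47 of 105 channel genes, or 44.8%, against 42.0% of all features, and the median size of the difference between them was 0.298 against 0.261. It exceeded 1 for 5 channel genes, where 3.12% of all features did so: Kcnip2 (0.48 for transgenic RNA in Cy5, -0.80 for Cy3), Kcnma1 (0.66 and -0.46), Kcng3 (0.66 and -0.42), Kcnip4 (0.40 and -0.64) and Cacna1d (-0.65 and 0.37). All of these but Kcng3 were measured by dim probes. For Kcng3 the 6 arrays of one orientation ran from -0.79 to -0.16 and those of the other from 0.51 to 0.96, while the pair means lay between 0.06 and 0.18, so a small pair spread can stand beside a large dye difference. All 12 arrays were positive for Kcnc4, Kcnab1, Cacng7 and Kcna6, that is for 4 of 105 channel genes against 1.62% of all features with 1 sign on all 12.

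**Figure D4:**
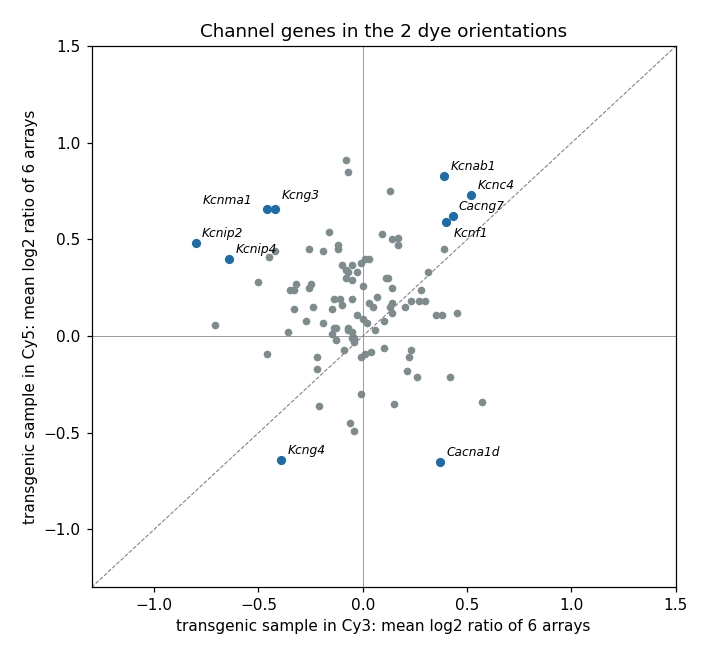
Mean dye-corrected log2 ratio, as deposited, of the 6 arrays on which Cy3 labelled the transgenic RNA (horizontal axis) and of the 6 on which Cy5 did (vertical axis), 1 point per tested channel gene. The dashed line marks equal values, and named genes are in blue. Kcnc4, Kcnab1, Cacng7 and Kcnf1 are positive on both axes, whereas Kcnip2, Kcnip4, Kcnma1, Kcng3 and Cacna1d lie in quadrants of opposite sign.

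The precision of single genes was limited by the number of pairs. The SD over 6 pairs had a median of 0.213 among channel genes and 0.221 among all features. Signal, recovered from the deposited ratios, had a median of 287 for channel probes and 295 for all probes, and 21 channel probes lay below the 25th percentile. For 15 of the 105 genes all probes were dim, and 10 genes had more than 1 probe.

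Other genes of ion transport, taken from a list of 55 that holds pumps, exchangers, chloride, HCN and TRP channels, and channel partners, were positive for 21 of 45 tested, with a median of -0.00 beside the channel genes' 0.07. Of these 45, 0 passed in limma, and 5 had an unadjusted p under 0.05, 4 of them positive. Stac, an adaptor that holds L-type calcium channels at the membrane, was the highest, with ratios of 0.41, 0.70 and 0.86 at 10 days and of 0.68, 0.67 and 0.53 at 4 months. Its mean was 0.64 ± 0.16 (SD, n = 6; limma adjusted p = 0.0612), positive in all pairs. Dpp6, a partner of Kv4 channels, was at 0.19 (adjusted p = 0.286), and Atp2a3, a calcium pump of the endoplasmic reticulum, at -0.26 (adjusted p = 0.157).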

How the data were processed

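Adrenal RNA of 6 pairs was measured on 12 arrays. The deposited values are log2 ratios made by the authors, whose normalization, scanner and background step the labels do not state. Base 2 was checked: on the 6 arrays stored at full precision, 100% of the values were log2 ratios of whole numbers up to 65535 (tolerance 1e-13). Values were neither centred nor free of a signal trend, and a loess fit (span 0.3) on the signal recovered from those numbers was subtracted per array. Of the spots, 4.30% to 6.59% were empty. Probes of a gene and then the 2 arrays of a pair were averaged. Features with at least 2 of 3 pairs per group were fitted in limma 3.58.1 (R 4.3.3; 4 residual and 3.85 prior degrees of freedom), two-sided, Benjamini-Hochberg adjusted over 21513 features, threshold 0.05. The dye correction and the fit over all 6 pairs were tried on simulated single probes. The averaging of probes by gene and the fits by age were not. Dim means a signal below the 25th percentile of all probes. Named are members past the threshold, those with the smallest p by direction and contrast, family extremes, the largest dye differences, and channels known in the adrenal. All 110 symbols matched RefSeq. The members and lists were chosen with earlier results of these data known. The number of arrays limits the precision, and signal over background is unknown.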

Additional observations from a re-analysis of the deposited data

Results flagged for a closer look

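Among channel genes, 2 had 3 positive pairs at 10 days and 3 negative pairs at 4 months, as did 1.25% of all features. Kcnj14, an inward rectifier, had ratios of 0.09, 0.37 and 0.02 in pairs 11, 13 and 15 and of -0.06, -0.77 and -0.26 in pairs 1, 3 and 5. Its difference of 4 months minus 10 days was -0.52 (SE 0.21), which did not pass in limma (adjusted p = 0.933), and it was -0.32 without pair 3. Kcns1, a modifier subunit, had ratios of 0.18, 0.14 and 0.10 in pairs 11, 13 and 15 and of -0.04, -1.40 and -0.02 in pairs 1, 3 and 5. Its difference was -0.63 (SE 0.35; limma adjusted p = 0.933), and 2 of its 3 values at 4 months lay within 0.04 of 0. Age and copy number cannot be told apart in either gene.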

How the results depend on the processing

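The count of channel genes past the threshold over all 6 pairs was 1. It was 0 with arrays centred on their median (limma, 27 at unadjusted p under 0.05), in the ordinary linear model (22), with sex in the model (18) and with dim probes left out (21). These counts at unadjusted p were 25.7%, 21.0%, 17.1% and 23.3% of channel genes, against 17.7%, 13.1%, 12.2% and 16.1% of all features. Leaving out 1 pair gave 0 each time, with 16 to 26 at an unadjusted p under 0.05 in limma. That was 15.2% to 25.2% of channel genes, against 10.3% to 14.7% of all features. Without pairs 11, 15 and 3 together, Kcnc4 was at 0.55. The count stayed 1, Kcnc4, with a signal trend in the prior variance, with each probe tested by itself and with values on all 12 arrays required. With the 12 arrays as separate values, the pair as a random block and a dye term, it was 10 over all 6 pairs, 2 at 10 days and 3 at 4 months, where 3.61%, 0.349% and 1.34% of all features were called. The transgenic sample in Cy3 alone gave 10 over all 6 pairs and 2 at 4 months (6.46% and 1.32% of all features). The transgenic sample in Cy5 alone gave 26 over all 6 pairs, 1 at 10 days and 7 at 4 months (15.9%, 1.03% and 4.23% of all features). The deposited values without correction gave 49 over all 6 pairs and 26 at 4 months (27.7% and 11.8% of all features). There the median of all features was 0.28 over all 6 pairs and that of the channel genes 0.35. The settings without pairs 11, 15 and 3 and without correction were chosen after seeing the data. The causes of these differences were not tested. The difference between the ages had a count of 0 under every setting with at least 2 pairs per group, in limma and in the ordinary model. There, 2 to 6 genes had an unadjusted p under 0.05, depending on the setting. That was 1.9% to 5.77% of channel genes, against 3.31% to 7.32% of all features. Of 1451 values of single named genes under alternatives, 1371 had the sign of the reported value and 80 the opposite sign, 28 of these 80 with 1 dye orientation alone. Past the threshold were 72 with the reported sign and 3 with the opposite sign. Of values reported as past the threshold, 11 alternatives no longer passed and 0 changed sign. Each ratio compares a mouse with its littermate. No paired analysis was possible between the ages, because the 2 groups share no replicate number. Depth is unknown for arrays, and the number of pairs limits what could be called.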
